A study of Mus musculus with 6 samples.

Results

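The MHC class II genes and Ciita were followed through sorted macrophages of the mouse omentum and mesentery. The members are 10 genes taken by symbol, H2-Aa, H2-Ab1, H2-Eb1, H2-DMa, H2-DMb1, H2-DMb2, H2-Oa, H2-Ob, Ciita and Cd74, of the 23946 genes in the table. All 10 had 1 FPKM or more (fragments per kilobase of transcript, scaled to the aligned reads of the library) somewhere among the 6 libraries, as did 13064 genes in all. Cells carrying CD45, CD11b and the macrophage antigen encoded by Emr1 were sorted from C57BL/6 mice, which per the methods were female and 6 to 8 weeks old, before and after intraperitoneal injection of ID8 cells, a mouse ovarian cancer line. The omental libraries are named OM naive (uninjected), OM 24 h and OM 7 d (24 h and 7 d after ID8), and the mesenteric libraries MY naive, MY 24 h and MY 7 d. The 9 mice were processed as groups of 3, so a library stands for pooled animals, and the labels do not say whether the omentum and the mesentery of a time point came from the same mice. No library of vehicle-injected mice was analysed here, so injection itself and ID8 cells cannot be told apart. Each condition has 1 library. There is thus no replicate spread within a condition, and every difference below describes 2 libraries. A test of the tissues that takes the 3 time points as replicates was not run.

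Class II molecules carry peptides taken up from outside the cell to the surface, where CD4 T cells read them. An alpha and a beta chain pair in the endoplasmic reticulum with the invariant chain, encoded by Cd74, which plugs the groove and guides the complex to endosomes. There H2-DM exchanges the remaining fragment of the invariant chain for a peptide, and H2-DO, best known from B cells, holds H2-DM back. Ciita encodes the coactivator that turns these genes on together through the X and Y boxes of their promoters, and it is itself induced by interferon-gamma in macrophages. B cells, dendritic cells and activated macrophages are the main cells that make class II.

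Of the members, 8 lie on chromosome 17 (assembly NCBIM37, or mm9). In the GENCODE M1 annotation their order along the chromosome begins with H2-Oa (34229285 to 34232179), H2-DMa (34272127 to 34276046), H2-DMb2 (34280252 to 34288498) and H2-DMb1 (34290017 to 34297168), all on the plus strand. H2-Ob (34375848 to 34390850) and H2-Ab1 (34400154 to 34406363) follow on the plus strand, then H2-Aa (34406276 to 34424772) on the minus strand and H2-Eb1 (34442828 to 34453144) on the plus strand. The spans of H2-Ab1 and H2-Aa overlap by 88 bases at their ends, and whether the authors' counting used strand is not given in the sources used here. Ciita lies on chromosome 16 (10480237 to 10527657). H2-DMb1 and H2-DMb2 are closely related copies, and 254 of the 1323 windows of 75 bases in H2-DMb1 transcripts (19.2%) also occur in those of H2-DMb2. For the other 8 members, 0 such windows occur in the coding transcripts of another gene. How reads were divided between the H2-DMb copies is therefore uncertain, and their sum is given beside them.

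The promoters of 7 members were in the RefSeq table (GRCm38.p6), and 6 of them are shown here because Ciita acts through boxes of this kind. All 6 have a Y box match and 5 an X box match, H2-Aa being the exception. The window of H2-DMa, whose only match is a Y box from -198 to -194, is not shown. H2-Ab1 and Ciita had no entry. Each line gives 5′ to 3′ the strand of the gene, and capitals mark exact matches to the letters searched on both strands, namely ATTGG for the Y box (CCAAT on the other strand), CNNAGNAAC for a short X box, where N is any base, and AAC, any 2 bases and ATGATG for an X box that runs on into the adjoining X2 box. The last of these letters were chosen after the sequences had been read, and the X box motifs overlap each other.
H2-Aa, chr17:34287855-34287943, minus strand: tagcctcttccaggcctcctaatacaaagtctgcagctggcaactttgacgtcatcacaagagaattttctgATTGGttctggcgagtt
H2-Eb1, chr17:34305767-34305848, plus strand: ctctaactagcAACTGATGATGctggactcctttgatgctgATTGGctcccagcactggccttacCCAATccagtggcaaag
H2-DMb1, chr17:34153065-34153146, plus strand: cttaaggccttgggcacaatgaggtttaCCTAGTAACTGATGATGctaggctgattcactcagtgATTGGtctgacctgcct
H2-DMb2, chr17:34145094-34145175, plus strand: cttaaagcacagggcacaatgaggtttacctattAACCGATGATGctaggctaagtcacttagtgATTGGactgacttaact
H2-Oa, chr17:34092271-34092352, plus strand: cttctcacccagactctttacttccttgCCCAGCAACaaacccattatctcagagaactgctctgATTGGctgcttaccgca
H2-Ob, chr17:34238783-34238864, plus strand: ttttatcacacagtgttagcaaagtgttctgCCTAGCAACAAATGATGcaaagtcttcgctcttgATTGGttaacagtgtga

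All 6 of these promoters held the Y box, which occurs in the 250 bases before 33.8% of the 32851 starts in the table. The short X box was found in 3 of the 6, H2-DMb1, H2-Oa and H2-Ob, against 13.9% of all promoters. The full letters CCTAGCAAC were found in H2-Ob alone among them, against 0.694% of all promoters. The X box running into X2 was found in 4, H2-Eb1, H2-DMb1, H2-DMb2 and H2-Ob, against 0.119% of all promoters. These letters were taken from the same genes, so their share among the members is no measure of enrichment. H2-DMa has 2 starts in the table, and its Y box match lies before 1 of them. The absence of a match says only that these letters are not in the window.

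**Figure D1:**
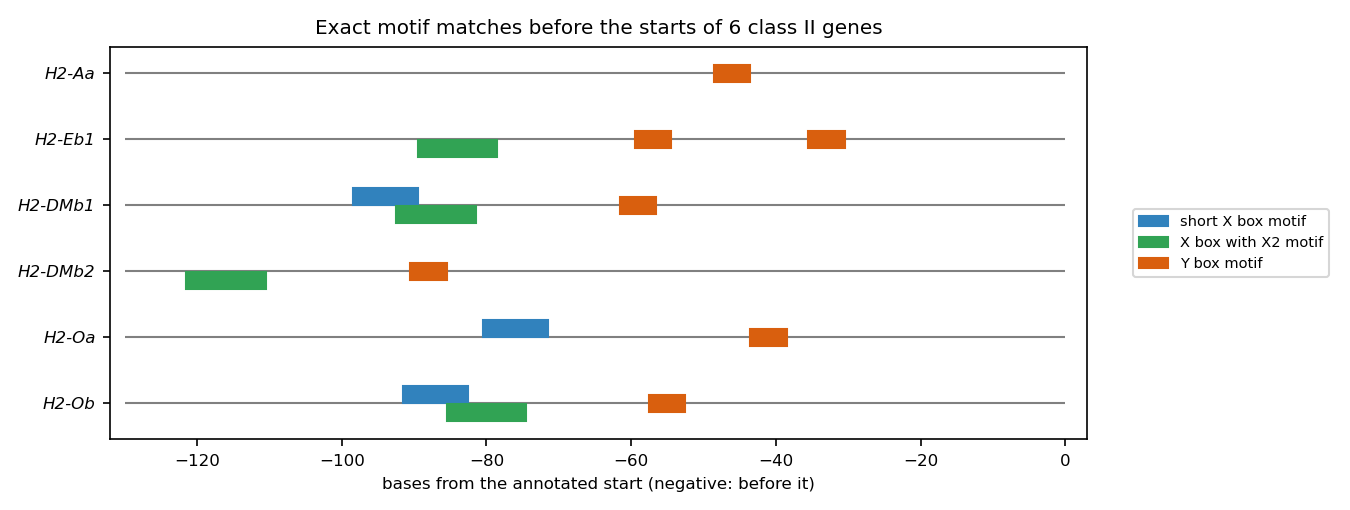
Exact matches to the short X box (blue), the X box with X2 (green) and the Y box (orange) in 6 class II promoters, by distance in bases from the annotated start, which is negative before it. In each promoter with an X box match, that match lies farther from the start than the Y box.

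The classical chains H2-Aa, H2-Ab1 and H2-Eb1 were among the most abundant RNAs of every library and followed the same course. H2-Ab1, the beta chain of I-A, stood at an FPKM of 10226 in OM naive, 15011 in OM 24 h and 7017 in OM 7 d, against 4487 in MY naive, 6223 in MY 24 h and 6002 in MY 7 d. Its rank by FPKM among the expressed genes lay between 3 and 5 in all 6 libraries. H2-Aa, the alpha chain of I-A, stood at 6291, 9006 and 4356 in the omentum in the same order of time and at 3001, 4732 and 4260 in the mesentery. H2-Eb1, the beta chain of I-E, stood at 3371, 4853 and 2218 in the omentum and at 1568, 2388 and 2122 in the mesentery. For each of the 3 chains OM 24 h was highest, OM naive came next and MY naive was lowest, with the highest library 3.00 to 3.35 times the lowest. OM 7 d, MY 24 h and MY 7 d lay close together between them.

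C57BL/6 mice carry a deletion in the promoter of the I-E alpha gene, so the beta chain of I-E has no partner at their surface. The alpha gene, listed as the pseudogene H2-Ea-ps, had an FPKM of at most 0.144 in any library and was listed at 0 in both naive libraries. H2-Eb2, another beta gene of the same region, had an FPKM of 8.32, 3.70 and 6.58 in the omentum, against 17.8, 18.1 and 15.3 in the mesentery. Its order between the tissues was thus the reverse of that of H2-Eb1.

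Cd74, the invariant chain, had the highest FPKM of all genes in OM naive, at 26905, and ranked 2 in OM 7 d (15010), MY naive (11323), MY 24 h (13324) and MY 7 d (14370). In OM 24 h it was listed at 0. It was the only gene, 1 of all in the table, at 0 in a library and at 100 or more in each of the others. The other members in OM 24 h were at 28.8 or more, so the listed 0 of Cd74 is left out of every difference, and the members are 9 where OM 24 h enters. Without Cd74, the members held 3.47% of the summed FPKM of OM naive, 4.27% of OM 24 h, 2.63% of OM 7 d, 1.85% of MY naive, 2.47% of MY 24 h and 2.50% of MY 7 d.

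H2-DM, the editor of peptides, is made of H2-DMa with either H2-DMb1 or H2-DMb2. H2-DMa, its alpha chain, had an FPKM of 524.4, 688.4 and 326.0 in the omentum, again in the order naive, 24 h and 7 d, against 196.3, 260.4 and 285.0 in the mesentery. H2-DMb1 had 317.7, 622.8 and 232.0 in the omentum and 103.2, 175.7 and 146.6 in the mesentery. Both were highest in OM 24 h, as the classical chains were. H2-DMb2 took another course, with 525.6, 154.1 and 337.4 in the omentum and 166.1, 149.0 and 287.5 in the mesentery, and was highest in OM naive. The sum of the beta copies was 843.3, 776.9 and 569.5 in the omentum and 269.3, 324.7 and 434.1 in the mesentery, so the opposite movement of the copies at 24 h largely cancelled in the omental sum but not in the mesenteric sum.

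H2-DO, the inhibitor of H2-DM, is made of H2-Oa and H2-Ob. H2-Oa, its alpha chain, had an FPKM of 143.0, 58.9 and 125.6 in the omentum, against 110.7, 124.1 and 171.6 in the mesentery. H2-Ob, its beta chain, had 96.1, 28.8 and 66.1 in the omentum and 58.7, 45.6 and 93.9 in the mesentery. Both chains were lowest in OM 24 h, the library in which the classical chains were highest. Ciita, the coactivator of the whole set, had an FPKM of 53.2, 43.7 and 37.7 in the omentum and 38.1, 40.5 and 49.6 in the mesentery. Its highest library was 1.41 times its lowest, the narrowest range of the members.

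**Figure D2:**
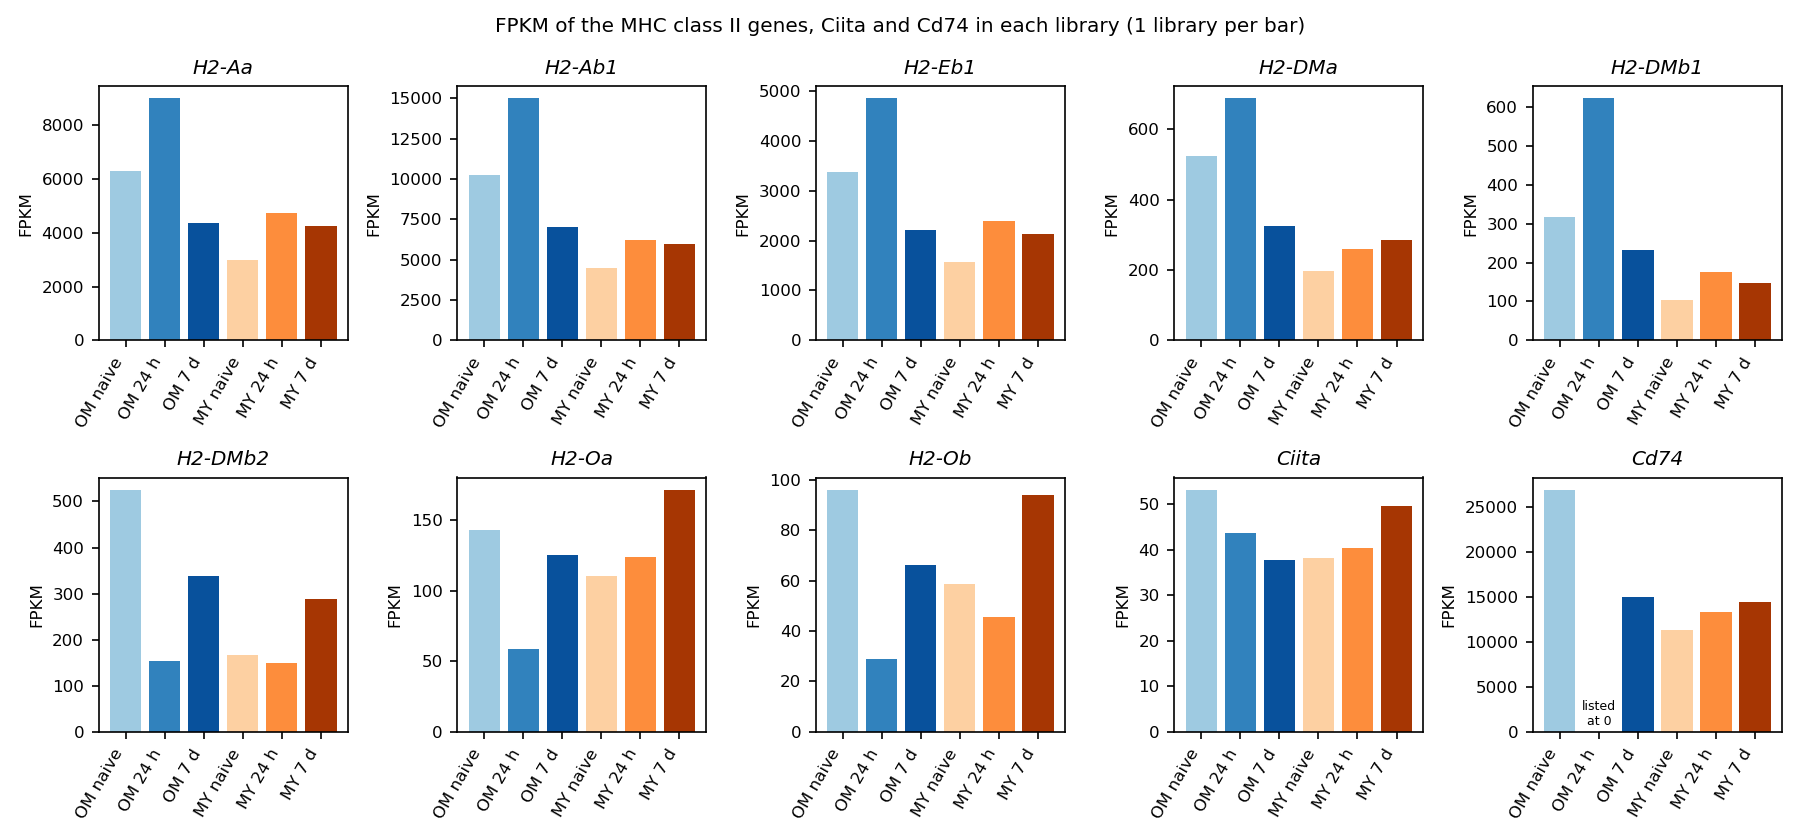
FPKM (vertical axis, from 0) of each member in the 6 libraries, with 1 bar per library and a separate scale for each gene. The classical chains, H2-DMa and H2-DMb1 peak in OM 24 h, where H2-Oa and H2-Ob are lowest and Cd74 is listed at 0.

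Between the naive libraries, class II RNA stood above the mesenteric level in the omentum. Differences were taken on the log2(FPKM + 1) scale, and a gene was called from a 2-fold difference upward. In OM naive against MY naive all 10 members were higher and 7 were called, against 8.18% of the expressed genes called in that direction, while 0 members were called lower (background 8.05%). The median difference of the members was 1.15, and that of all expressed genes 0.01. The largest differences were those of H2-DMb2 (1.66), H2-DMb1 (1.61) and H2-DMa (1.41), followed by Cd74 (1.25), H2-Ab1 (1.19), H2-Eb1 (1.10) and H2-Aa (1.07). H2-Ob (0.70), Ciita (0.47) and H2-Oa (0.37) were not called. After rescaling each library to the same sum of FPKM, 4 members were called and the classical chains were not. All expressed genes then moved by a median of -0.19, and relative to that shift the chains stood at 1.02 to 1.14. Subtracting the shift nearly undoes the rescaling, so these relative values are no separate check. Markers of several cell types also differed between these libraries, in both directions. The 8 genes of the B cell list summed to an FPKM of 4231 in OM naive and 880.1 in MY naive, and all 8 were called higher. The 7 macrophage markers summed to 1577 and 942.4, with 1 called higher, and the monocyte markers to 1435 and 440.6, with 3 of 5 called higher. The neutrophil markers summed to 5888 and 619.7, with 4 of 5 called higher. All 5 fibroblast markers (335.7 against 1.92) and all 5 mesothelium markers (80.7 against 0.448) were called higher too. All 5 T cell markers (131.4 against 955.5) and all 5 NK cell markers (82.0 against 435.9) were called lower. The 10 dendritic cell markers summed to 621.0 and 753.4 and were divided. Cd209a (263.8 against 11.8) and Clec10a (88.6 against 10.3) were called higher in the omentum and Ccr7 (93.8 against 526.0) lower. In sorted bulk cells, more cells of a type and more RNA per cell cannot be told apart, and the part of these cells in the difference was not tested.

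At 24 h after ID8 the members split in the omentum. In OM 24 h against OM naive, H2-DMb2 was called lower (log2 difference -1.76), as were H2-Ob (-1.71) and H2-Oa (-1.27), which makes 3 of 9 members against 6.45% of the expressed genes. No member was called higher (0 of 9, background 11.9%). H2-DMb1 came closest, at 0.97, with H2-Ab1 at 0.55, H2-Eb1 at 0.53, H2-Aa at 0.52 and H2-DMa at 0.39, while Ciita was at -0.28. The median of the members, 0.39 beside 0.00 for all expressed genes, thus stands for neither side. After rescaling to the same FPKM of Ptprc, the CD45 gene of the sort, 0 members were called lower and 5 higher. All expressed genes then moved by a median of 0.66. Relative to that shift H2-DMb2 stood at -1.65, H2-Ob at -1.60 and H2-Oa at -1.16, values that nearly restore the unscaled ones and are no separate check. The summed B cell markers were 0.232 times their naive level (981.3 against 4231), with all 8 called lower. The T cell markers were at 0.202 times theirs, with 4 of 5 called lower, and the NK cell markers at 0.0509 times, with 5 of 5. The mast cell markers were at 0.092 times, with 3 of 4 called lower. The summed macrophage markers were 5.96 times their naive level (9395 against 1577), with all 7 called higher. The neutrophil markers were at 2.33 times theirs, with 5 of 5 called higher. The dendritic cell markers summed to 449.5 against 621.0, with 3 of 10 called lower, and the mesothelium markers to 816.4 against 80.7, with 4 of 5 called higher. The part of these cells in the split was not tested.

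At 7 d every member was lower in the omentum than in the naive library, by 0.19 (H2-Oa) to 0.84 (Cd74) on the log2 scale, except that 6 of them changed sign after rescaling to the same Ptprc, a scaling that moved all expressed genes by 0.47. No member was called in either direction (background 11.0% higher and 1.96% lower). The median was -0.54 beside 0.00 for all expressed genes. H2-DMa was at -0.68, H2-DMb2 at -0.64, H2-Eb1 at -0.60, H2-Ab1 at -0.54, H2-Aa and H2-Ob at -0.53, Ciita at -0.49 and H2-DMb1 at -0.45. The split seen at 24 h was thus not present in OM 7 d. The B cell markers summed to 2653, the macrophage markers to 949.6 and the dendritic cell markers to 379.8 in this library. The mesothelium markers went from 80.7 to 813.8, with 5 of 5 called higher, and the fibroblast markers from 335.7 to 1179, with 4 of 5 called higher. The part of these cells in the difference was not tested.

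In the mesentery no member was called at either time. In MY 24 h against MY naive the median of the 10 members was 0.32, with H2-DMb1 (0.76), H2-Aa (0.66) and H2-Eb1 (0.61) highest and H2-Ob (-0.36) and H2-DMb2 (-0.16) below 0, of which H2-DMb2 turned to 0.10 after rescaling to the same Ptprc. The background was 2.80% called higher and 1.52% called lower. In MY 7 d against MY naive all 10 members were higher, from 0.34 (Cd74) to 0.79 (H2-DMb2), with a median of 0.50 beside 0.02 for all expressed genes, of which 0.498% were called higher and 2.29% lower. The order of H2-Ob in the mesentery was MY 7 d, MY naive and MY 24 h, which was also the order of the summed B cell markers (1694, 880.1 and 585.3). In the omentum both ran in the order OM naive, OM 7 d and OM 24 h. The B cell list was not alone in these orders. In the mesentery the summed T cell markers (1081, 955.5 and 541.3) and mast cell markers (50.9, 38.4 and 36.1) had the same one. In the omentum they did too, with T cell sums of 131.4, 124.3 and 26.5 and mast cell sums of 45.5, 45.2 and 4.19. In the naive pair H2-Ob (96.1 in the omentum, 58.7 in the mesentery) and the B cell sum (4231 and 880.1) were both higher in the omentum. At 24 h and 7 d H2-Ob and the B cell sum did not run together between the tissues. At 24 h H2-Ob stood at 28.8 in the omentum and 45.6 in the mesentery, beside B cell sums of 981.3 and 585.3. At 7 d H2-Ob stood at 66.1 and 93.9, beside B cell sums of 2653 and 1694. H2-Oa, the other chain of H2-DO, stood at 110.7 in MY naive and 124.1 in MY 24 h, where the B cell sum was lower. The part of any cell type in the courses of H2-Ob and H2-Oa was not tested. The macrophage markers summed to 942.4, 2284 and 1078 in MY naive, MY 24 h and MY 7 d.

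Between the tissues at 24 h, 4 of 9 members were called higher in the omentum (background 13.9%), H2-DMb1 (1.82), H2-DMa (1.40), H2-Ab1 (1.27) and H2-Eb1 (1.02), and H2-Oa (-1.06) was called lower (background 10.2%). H2-Aa was at 0.93, Ciita at 0.11, H2-DMb2 at 0.05 and H2-Ob at -0.64, and Ciita and H2-DMb2 changed sign after rescaling to the same sum. In that scaling H2-Ab1 (0.95) and H2-Eb1 (0.70) were no longer called, with all expressed genes at a median of -0.27. After rescaling to the same Ptprc H2-Oa (-0.49) was no longer called, with all expressed genes at 0.50. At 7 d there were 0 of 10 members called in either direction (background 14.1% higher and 4.99% lower) and a median of 0.06. The highest was H2-DMb1 at 0.66 and the lowest H2-Ob at -0.50. After rescaling to the same Ptprc the median was 0.81, with all expressed genes at 0.63. H2-DMb1 (1.40) was then called, and H2-Ob (0.23), H2-Oa (0.29) and Ciita (0.34) changed sign. These comparisons share libraries with those over time, so they are not separate evidence.

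**Figure D3:**
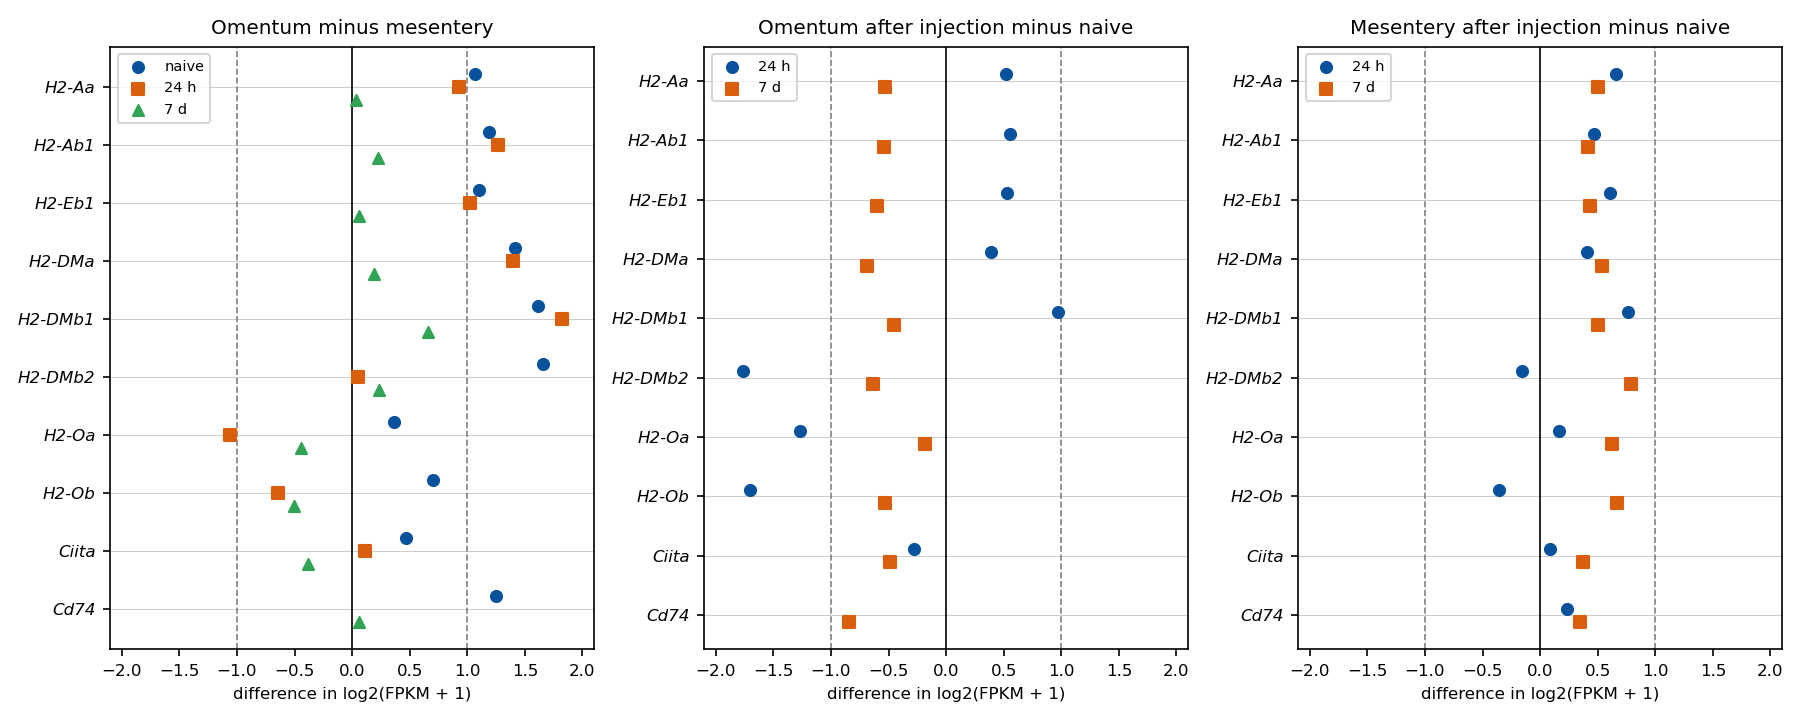
Differences in log2(FPKM + 1) of each member between tissues (left), over time in the omentum (middle) and over time in the mesentery (right), 1 library against 1 library, with dashed lines at 2-fold. In the omentum at 24 h H2-DMb2, H2-Oa and H2-Ob lie below -1, apart from the classical chains, H2-DMa and H2-DMb1, which lie between 0.39 and 0.97.

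Ratios between members within a library do not depend on the scaling between libraries. The classical chains kept nearly the same proportions. The ratio of H2-Ab1 to H2-Aa in FPKM was 1.63, 1.67 and 1.61 in the omentum, against 1.495, 1.32 and 1.41 in the mesentery. The ratio of H2-Eb1 to H2-Ab1 lay between 0.316 (OM 7 d) and 0.384 (MY 24 h). Cd74 stood at 1.22 (MY 24 h) to 1.63 times (OM naive) the sum of H2-Aa and H2-Ab1 in the 5 libraries where it had a value.

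The ratio of the inhibitor to the editor varied far more. H2-Oa to H2-DMa was 0.273 in OM naive, 0.0855 in OM 24 h and 0.385 in OM 7 d, and 0.564, 0.477 and 0.602 in the mesentery, so the highest was 7.04 times the lowest. H2-Ob to the summed H2-DMb copies was 0.114, 0.0371 and 0.116 in the omentum and 0.218, 0.140 and 0.216 in the mesentery. For both ratios, every mesenteric library was above every omental library, and OM 24 h was lowest. Markers of several cell types differed between these libraries too, as given above, and the part of those cells in the ratios was not tested. H2-DMb2 to H2-DMb1 was 1.65, 0.247 and 1.45 in the omentum and 1.61, 0.848 and 1.96 in the mesentery, so the 24 h library was lowest in each tissue. That ratio was chosen after the values had been seen. Ciita per 1000 FPKM of the mean of H2-Aa and H2-Ab1 was 6.44, 3.64 and 6.63 in the omentum and 10.2, 7.39 and 9.66 in the mesentery. The lowest of these values was in OM 24 h, where H2-Aa and H2-Ab1 were highest. Ciita RNA ranged by only 1.41 times over the libraries, so this ratio mainly reflects its denominator.

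**Figure D4:**
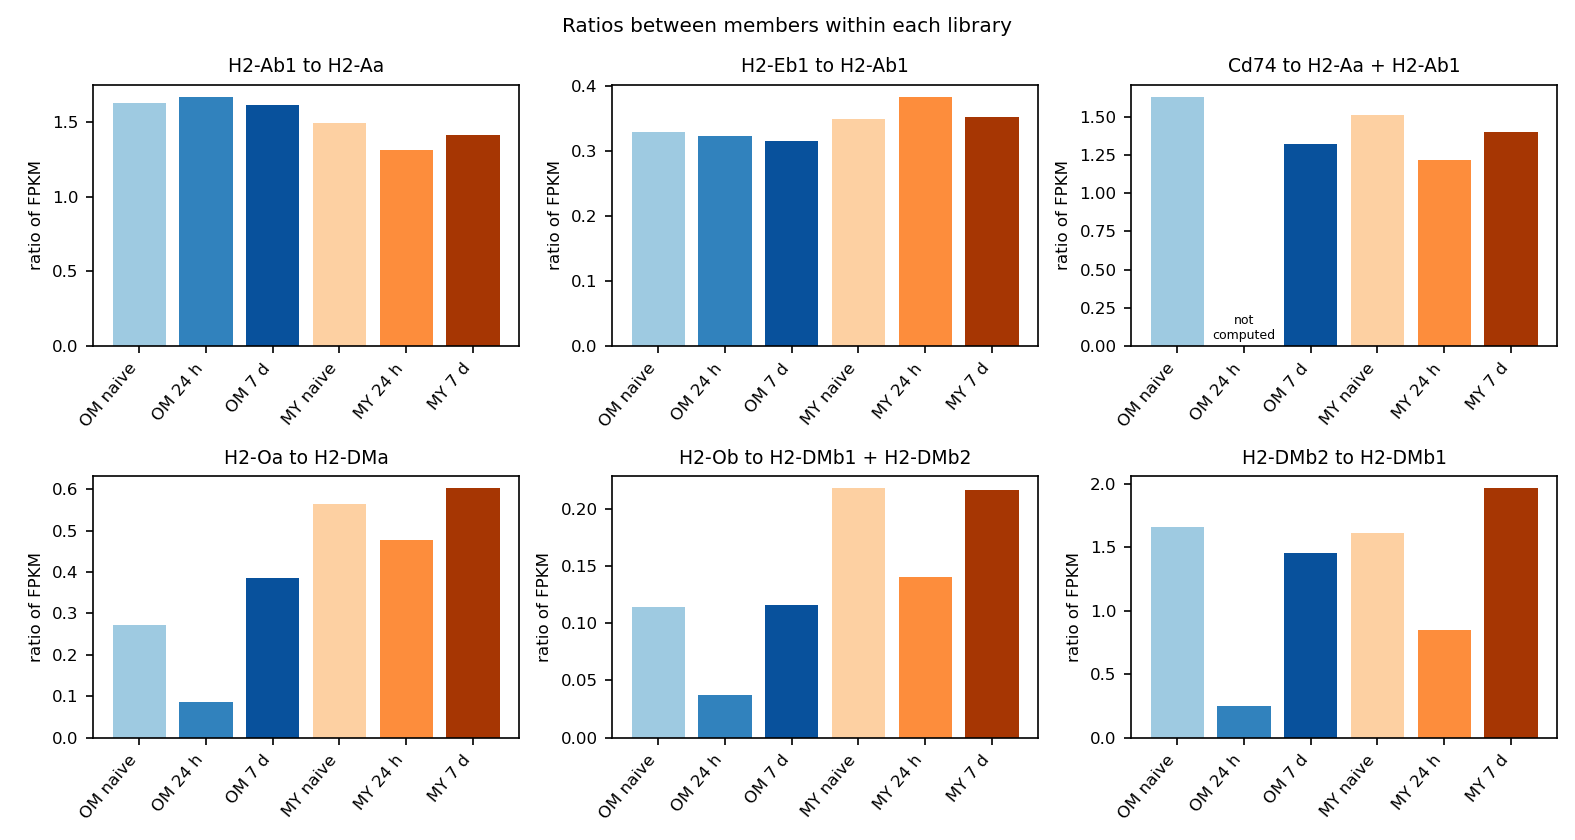
Ratios of FPKM between members in each of the 6 libraries, on axes from 0, with the ratio of Cd74 not computed in OM 24 h. The upper row holds the chains and the invariant chain, whose ratios vary by at most 1.34 times, and the lower row H2-DO against H2-DM and the H2-DMb copies, which vary by 5.89 to 7.93 times.

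Over the 6 libraries, the gene whose course was closest to that of the classical chains was Ctsh, a lysosomal aminopeptidase, at a root mean square difference of 0.065 in centred log2(FPKM + 1). Socs6 (0.075), Cd200r1 (0.089), an inhibitory receptor of myeloid cells, Hgsnat (0.10), a lysosomal acetyltransferase, and Crat (0.11) came next among the 7860 genes that reached 10 FPKM in a library. Of the members, H2-DMa was nearest to the chains at 0.15 and H2-Ob farthest at 0.95. The course of H2-Ob was closest to those of Gpr18 (0.086), Traf3ip2 (0.086), Taf4b (0.12), Xrcc5 (0.14) and Gm13363 (0.14) among 12333 genes, and its nearest members were H2-Oa (0.25) and H2-DMb2 (0.40). Ciita was closest to Zfx (0.050), Pdcl (0.055), Pcmt1 (0.059), Eef2 (0.059) and Otub2 (0.060), and lay at 0.44 or more from every member with a value in all libraries. With 6 libraries in all, these distances describe the table.

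The factors that hold Ciita at the promoter were called once over time. Of the 7 genes of the list, the RFX subunits Rfx5, Rfxank and Rfxap, the NF-Y subunits Nfya, Nfyb and Nfyc, and Creb1, 0 were called in either direction in the omentum at 24 h or 7 d, with medians of -0.41 and -0.20. Of all expressed genes, 11.9% were called higher and 6.45% lower at 24 h there, and 11.0% and 1.96% at 7 d. Rfx5 had an FPKM of 10.1, 5.65 and 9.22 in the omentum, against 11.1, 10.9 and 10.6 in the mesentery. In the mesentery Nfya was called lower at 7 d (1.11 against 3.99 in FPKM), and no other gene of the list was called there. Of all expressed genes, 2.80% were called higher and 1.52% lower at 24 h there, and 0.498% and 2.29% at 7 d.

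Among 16 inducers and repressors of Ciita, Ifngr2, a chain of the interferon-gamma receptor, was called higher in OM 24 h against OM naive (log2 difference 1.33), and Ifng (-3.02) and Irf4 (-1.81) were called lower, which makes 1 and 2 of 16 beside the same 11.9% and 6.45%. Ifng itself had an FPKM of 7.27, 0.0219 and 5.05 in the omentum, against 10.2, 4.21 and 3.92 in the mesentery. The value in OM 24 h lies below the 1 FPKM at which a gene counted as expressed. The NK cell markers, whose cells are a source of interferon-gamma, summed to 82.0, 4.17 and 40.8 in the omentum and to 435.9, 259.7 and 176.3 in the mesentery. The T cell markers summed to 131.4, 26.5 and 124.3 in the omentum and to 955.5, 541.3 and 1081 in the mesentery. The part of either cell type in the Ifng values was not tested. Irf1, an interferon-induced activator of Ciita, had an FPKM of 87.2, 88.5 and 176.4 in the omentum and of 229.0, 337.2 and 226.6 in the mesentery. It was called higher in OM 7 d (1.01), which makes 1 of 16 beside 11.0% of all expressed genes. Il10, which restrains class II in macrophages, had 14.7, 9.98 and 9.37 in the omentum and 1.35, 2.24 and 1.22 in the mesentery. In the mesentery Ifng was called lower at 24 h, and Ifng and Bcl6 at 7 d, and no gene of the list was called higher. Of all expressed genes, 1.52% and 2.29% were called lower there at 24 h and 7 d, and 2.80% and 0.498% higher.

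Of the 10 genes of the peptide loading compartment, 5 were called higher in OM 24 h against OM naive and 0 lower. Of all expressed genes, 11.9% were called higher and 6.45% lower there. The 5 were Lgmn (2.93), an asparaginyl endopeptidase, Ctsl (2.79), Ctsd (2.27), Ctsb (2.09) and Ctss (1.38). Ctss is the cathepsin that trims the invariant chain in antigen-presenting cells. Ctss had an FPKM of 892.5, 2330 and 693.6 in the omentum and of 529.5, 891.7 and 617.7 in the mesentery. The median of the list was 1.06 in OM 24 h and -0.19 in OM 7 d, where only Ctsl was called higher, and 0.49 and 0.19 in the mesentery with 0 called. Of all expressed genes, 11.0%, 2.80% and 0.498% were called higher in OM 7 d, MY 24 h and MY 7 d, and 1.96%, 1.52% and 2.29% lower. Ifi30, the thiol reductase of the compartment, had 579.2, 741.5 and 411.1 in the omentum and was not called. The macrophage markers moved with these genes, as given above, and their part was not tested.

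Of the 8 class II traffic genes, March8 (1.99) and Lamp1 (1.40) were called higher in OM 24 h against OM naive and Cd37 (-1.78) and Cd83 (-1.004) lower, beside the same 11.9% and 6.45%. March1, the ligase that removes class II from the surface of resting cells, had an FPKM of 23.4, 19.1 and 20.7 in the omentum and of 8.08, 14.8 and 20.9 in the mesentery, where it was called higher at 7 d (1.27). Cd83, which opposes March1, had 204.4, 101.4 and 202.2 in the omentum and 185.4, 260.9 and 246.4 in the mesentery. Of the 4 costimulation genes, 0 were called over time in either tissue. In those comparisons 0.498% to 11.9% of all expressed genes were called higher and 1.52% to 6.45% lower. Between the naive libraries Cd80 was called higher in the omentum (1.52) and Icosl lower (-1.41), beside 8.18% and 8.05% of all expressed genes. Cd86 was at 0.31 and Cd40 at -0.36. Neighbours of the class II genes that serve class I, Psmb8, Psmb9, Tap1 and Tap2, were not called over time in either tissue, nor were H2-K1, H2-D1 and B2m of class I itself. B2m had an FPKM of 4180, 5127 and 3286 in the omentum and of 4833, 4646 and 4171 in the mesentery. Between the naive libraries H2-K1 was at -0.60, B2m at -0.21 and H2-D1 at 0.01, beside 1.07 to 1.19 for the classical class II chains.

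**Figure D5:**
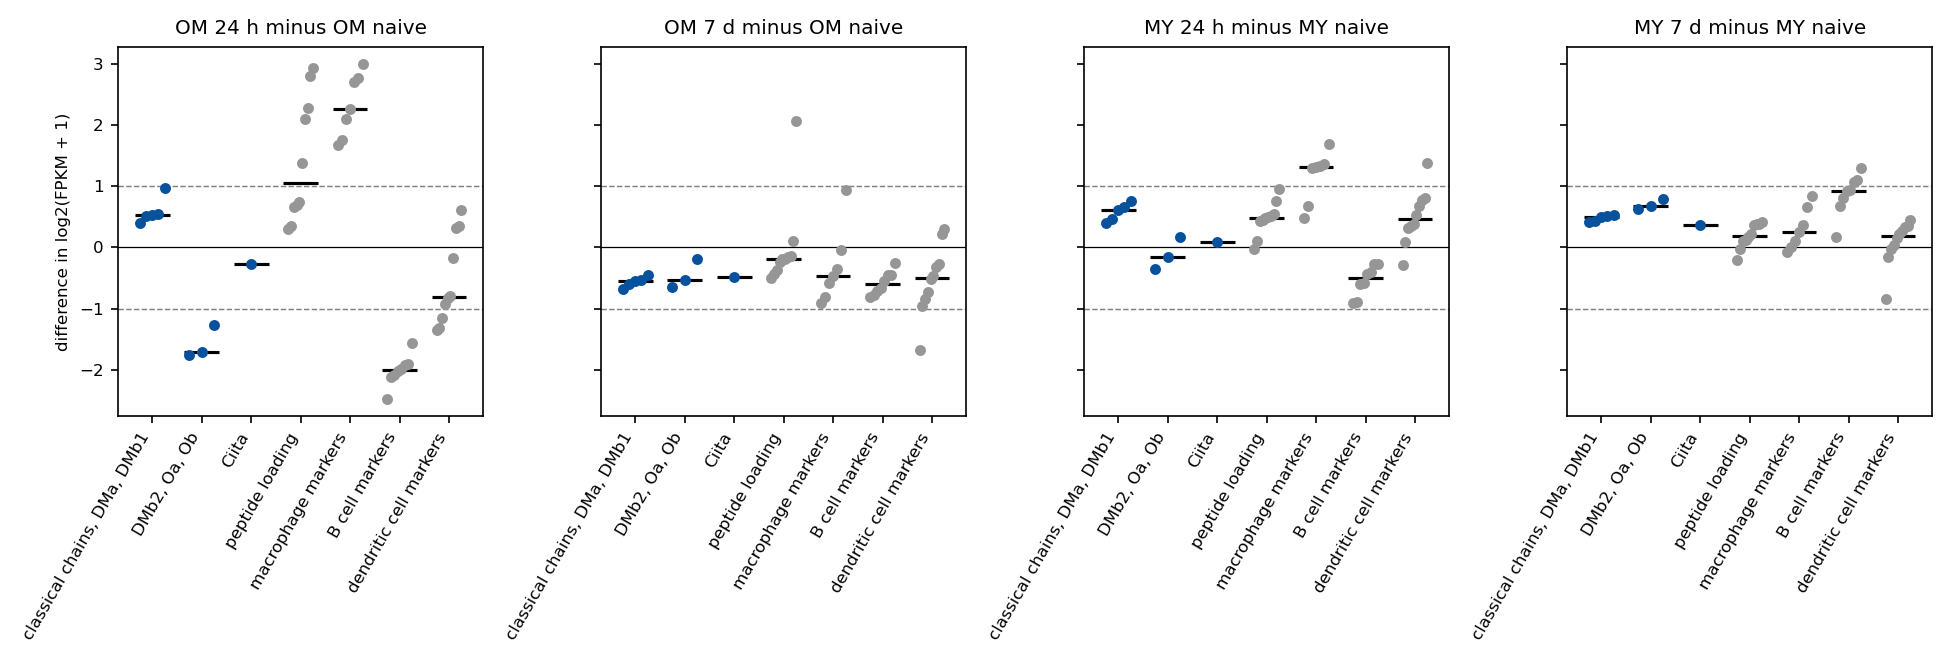
Differences in log2(FPKM + 1) from the naive library of the same tissue for members (blue) and for other lists (grey), 1 point per gene, with black bars at the median and dashed lines at 2-fold. In the omentum at 24 h H2-DMb2, H2-Oa and H2-Ob lie below -1, as do the B cell markers, while macrophage markers lie above 1. Of the 12 cell type lists only the macrophage, B cell and dendritic cell lists are drawn. In OM 24 h T cell, NK cell and mast cell markers, not drawn, were also mostly called lower. Neutrophil and mesothelium markers, not drawn either, were mostly called higher. Members were grouped after their values had been seen.

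The labelled cell type was checked against its markers. All 7 macrophage markers, and Ptprc and Itgam of the sort, had values above 0 in all 6 libraries, with Emr1, the third gene of the sort, between 20.5 (MY naive) and 135.0 (OM 24 h). Values above 0 do not show that macrophages prevail, and sums over lists of different genes do not measure cell shares. The B cell markers summed to more than the macrophage markers in OM naive (4231 against 1577), OM 7 d (2653 against 949.6) and MY 7 d (1694 against 1078), and the T cell markers stood beside them in MY naive (955.5 against 942.4) and MY 7 d (1081 against 1078). Cd79a, a part of the B cell receptor, had an FPKM of 221.9 (MY 24 h) to 1551 (OM naive). The plasmacytoid dendritic cell list summed to 145.3 to 230.6 and the monocyte list to 327.9 to 1526. The neutrophil list summed to 236.5 to 673.3 in the mesentery and 5888 to 14576 in the omentum, the fibroblast list to 1.92 to 2.88 and 219.7 to 1179, and the mesothelium list to 0.238 to 0.722 and 80.7 to 816.4. The eosinophil and mast cell lists summed to at most 50.9 in any library. The summed FPKM ran from 526887 (MY naive) to 713863 (OM 24 h). The methods of the study give a range of read totals over the samples. FPKM keep no totals of their own, so the depth of each library within that range is unknown here.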

How the data were processed

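RNA of sorted macrophages was sequenced in 6 libraries, 1 per tissue and time point. Values were deposited by gene symbol as FPKM, which the authors made with Cufflinks after alignment to mm9 with STAR 2.4.2a and a check with FastQC 0.11.4. The table holds no read counts, so a count test could not be run. Differences were computed on log2(FPKM + 1) with Python 3.11.15, numpy 2.4.6 and pandas 2.3.3, and matplotlib 3.10.9 drew the figures. A gene counted as expressed if any library reached 1 FPKM. With 1 library per group, no p-value was computed. A fit of the tissues over the time points was not run. The text names the members, called genes and examples from 7 pathway lists, and the 5 genes nearest to each of 3 profiles, and gives 12 cell type lists mainly as sums. The members and lists were chosen with earlier results of these data known. Alternatives were pseudocounts of 0.1 and 5, 3 scalings, 2 filters and, added later, a summed H2-DMb and the set without Cd74. Calls and distances were tested on simulated data. Promoters are from RefSeq on GRCm38.p6 and gene positions from GENCODE M1 on NCBIM37.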

Additional observations from a re-analysis of the deposited data

Results flagged for a closer look

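At 7 d after ID8, H2-DMb2 moved apart between the tissues by at least 1.5-fold each way. Against the naive library its log2 difference was -0.64 (omentum) and 0.79 (mesentery). It was the only member to do so at either time, though H2-DMa (-0.68 and 0.54) and H2-Ob (-0.53 and 0.67) came close. After rescaling to the same sum the omental difference was -0.49, and to the same Ptprc -0.09 (-0.55 relative to the shift of all expressed genes), both short of 1.5-fold. Its naive FPKM was 525.6 in the omentum and 166.1 in the mesentery, and at 7 d the tissues stood at 337.4 and 287.5. With 1 library per condition the difference between the tissues was not tested. The division of reads between H2-DMb2 and H2-DMb1 is uncertain, and the summed copies went from 843.3 to 569.5 in the omentum and from 269.3 to 434.1 in the mesentery. The B cell markers summed to 4231 and 2653 in the omentum and to 880.1 and 1694 in the mesentery at the same times, and their part was not tested.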

How the results depend on the processing

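Pairing the tissues by time point was not run. With 1 library per condition, a median or a single difference was taken as unchanged within 0.58 on the log2 scale and a count within 1.5 times. Of 49 medians recomputed under alternatives set in advance 47 were unchanged, and of 98 counts of called members 90 were. The summed H2-DMb copies and the set without Cd74 were chosen after seeing the data, and none of their 14 medians and 28 counts moved. After rescaling to a sum of 1000000, the members called higher were 4 in OM naive against MY naive and 2 in OM 24 h against MY 24 h. After rescaling by the median ratio, 1 was called higher in OM 24 h against OM naive. After rescaling to the same Ptprc, the median was 1.18 in OM 24 h against OM naive, with 5 called higher and 0 lower, and 0.81 in OM 7 d against MY 7 d, with 1 called higher. In that scaling 1 was called higher in MY 24 h against MY naive and 0 were called lower in OM 24 h against MY 24 h. The median of all expressed genes lay as far as 0.66 from 0 with the same Ptprc and as far as -0.27 with the same sum. Relative to these shifts, 0 members changed sign under any of the 3 scalings in any of the 7 comparisons. A rescaling moves all differences of a comparison by nearly the same amount. Subtracting the shift nearly undoes it, so this outcome was close to fixed in advance and is no separate check. Of 340 single member differences, 15 moved beyond that tolerance and kept their sign. A change of sign occurred in 15 others, 4 of them beyond the tolerance, these being, with the same Ptprc, Ciita in OM 24 h against OM naive (0.49) and, in OM 7 d against MY 7 d, Ciita (0.34), H2-Oa (0.29) and H2-Ob (0.23), and the cause was not tested. The methods give only a range of read totals and FPKM gives no counts, so the counting error of low values such as Ifng was not computed.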
